A study of Neogale vison with 6 samples.

Results

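The genes described here encode the protein complexes that start an autophagosome, measured in Mv1Lu cells with and without cholesterol depletion (CD). The set holds 10 genes, chosen by name, 4 of the initiation complex (ULK1, ATG13, RB1CC1 and ATG101) and 6 of the nucleation complexes (BECN1, PIK3C3, ATG14, UVRAG, NRBF2 and AMBRA1). Each symbol matched 1 of the 24526 genes in the count table, and all 10 genes had enough reads to be among the 12148 genes tested. In CD cells 8 of the 10 genes had more transcript and AMBRA1 had less (edgeR, FDR under 0.05), while ATG101 was not called.

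Mv1Lu is an established epithelial cell line from mink lung. Its RNA was sequenced as 3 libraries of untreated cells (control) and 3 libraries of cells kept for 16 h with 50 μM lovastatin, a statin that inhibits cholesterol synthesis, plus 50 μM mevalonate, an early intermediate of that pathway, in medium with 10% lipoprotein-deficient serum (LPDS). The labels name no vehicle and no serum for the untreated cells, so lovastatin, mevalonate and the change of serum cannot be told apart. No label says whether the replicates were separate cultures, and the p-values then measure the spread between these libraries only.

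Autophagosomes grow from a membrane sheet, the phagophore, on the endoplasmic reticulum. The ULK complex receives the nutrient signal, since its kinase ULK1 is held back by mTOR complex 1 and activated by AMP-activated kinase (AMPK). The complex then activates the class III PI3-kinase, which marks the membrane with phosphatidylinositol 3-phosphate (PI3P), the lipid that recruits the proteins of phagophore expansion.

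The libraries held between 13473820 and 18633764 reads on genes. Reads not on genes made up 47.2%, 41.4% and 29.3% of control replicates 1, 2 and 3, and 31.1%, 31.8% and 41.4% of the CD replicates. The ranges of the groups overlap, but CD replicate 3 stood apart from the other CD libraries. Unmapped reads made up 18.4%, 13.6% and 4.26% of the control and 3.54%, 4.33% and 9.37% of the CD replicates. Libraries of the CD group differed more from each other than control libraries did, with biological coefficients of variation of 0.213 and 0.0842. The sterol-response genes HMGCS1, INSIG1 and SQLE were higher in CD, by 3.43, 1.67 and 1.60 on the log2 scale (edgeR, FDR under 0.05). Epithelial markers, 5 of 7 found, summed to between 884 and 1012 CPM in control and between 385 and 541 CPM in CD. KRT19, which made up nearly all of this, fell 2.04-fold without overlap (FDR 0.000274, edgeR), and CLDN4 rose 11.7-fold from at most 0.867 CPM in control (FDR 9.61e-06, edgeR). CDH1, EPCAM and CLDN7, which define many epithelia, stayed at or under 0.432 CPM in every library. KRT8 and KRT18 were not analysed here. Hematopoietic markers summed to between 5.57 and 6.67 CPM in control and between 21.1 and 25.9 CPM in CD. CD68 and CSF1R rose by 1.85 and 2.16 on the log2 scale (FDR 2.49e-05 and 0.000312, edgeR), while PTPRC was at most at 0.072 CPM and CD79A at 0 in all libraries. Fibroblast markers summed to between 310 and 387 CPM in control and between 183 and 233 CPM in CD, most of it COL1A2 and COL3A1. Of the 5 that were tested, 4 were called lower, and PDGFRA was not called (FDR 0.921, edgeR). LUM and DCN had too few reads to be tested, with means of 0.146 and 0.0608 CPM in control and 0.759 and 0.328 CPM in CD. Endothelial markers, of which PECAM1 and CDH5 had 0 counts in every control library, summed to between 206 and 221 CPM and between 75.9 and 124 CPM, almost all of it TEK. VWF of the same list was called higher, from at most 0.165 CPM in control to between 0.922 and 1.66 CPM in CD (FDR 0.000882, edgeR). The part of these marker changes in the results below was not tested.

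The comparison of CD with control asks how the transcripts of these complexes respond to the treatment. Counts were tested with the quasi-likelihood test of edgeR over all 6 libraries, and the false discovery rate (FDR) was adjusted over all genes tested. Levels are in CPM, read counts scaled by the TMM-adjusted number of reads on genes, and they are compared between groups for each gene but not between genes, because gene lengths were not used here. In bulk RNA, a lower level in each cell and fewer cells that carry the transcript cannot be told apart. Of all genes tested, 24.8% were called higher and 22.9% lower, or 47.7% in either direction, so that calls were common in this comparison. Against this, 8 of the 10 genes were higher and 1 lower. Their median log2 fold change was 0.94, and that of all genes tested 0.06. A called increase of at least 2-fold was reached by 5 of the 10 genes, as against 10.6% of all genes tested. These figures describe genes chosen with earlier results of these data known, and are not a test of the set.

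In the initiation complex, 3 of 4 genes were higher and none was lower (edgeR, FDR under 0.05), with a median log2 fold change of 0.93. ULK1, the protein kinase that gives the complex its name, had 194, 180 and 219 CPM in control replicates 1, 2 and 3. In CD replicates 1, 2 and 3 it had 350, 381 and 338 CPM. No CD library came near the controls, and the gap between the groups was wider than the spread within either of them. ULK1 rose 1.80-fold, or by 0.85 on the log2 scale (standard error 0.12, FDR 0.000251, edgeR).

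ATG13, the adaptor that ties ULK1 to the rest of the complex, had 76.1, 64.4 and 76.5 CPM in the control libraries. It had 168, 159 and 112 CPM in CD replicates 1, 2 and 3. All CD libraries were above the controls, but CD replicate 3 stood well below the other CD libraries. The log2 fold change of ATG13 was 1.02 (standard error 0.16, FDR 0.000622, edgeR).

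RB1CC1, also called FIP200, is the large scaffold on which the complex assembles. Its levels were 19.3, 19.01 and 13.9 CPM in the control and 56.2, 31.7 and 45.7 CPM in the CD libraries. The groups did not overlap, although the CD libraries of RB1CC1 differed from each other more than those of any other gene of the 10, with a coefficient of variation of 27.7%. RB1CC1 rose 2.56-fold, the highest fitted change in the initiation complex (1.36 on the log2 scale, standard error 0.22, FDR 0.000718, edgeR).

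ATG101, a small protein that binds ATG13 and keeps it stable, was not called. It had 94.3, 100 and 107 CPM in the control and 91.9, 111 and 129 CPM in the CD libraries. The groups overlapped, since CD replicate 1 was the lowest of all 6 libraries and CD replicate 3 the highest. The fitted log2 fold change, 0.14, was as small as its standard error of 0.14 (FDR 0.434, edgeR), and without CD replicate 3 it was -0.019.

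**Figure D1:**
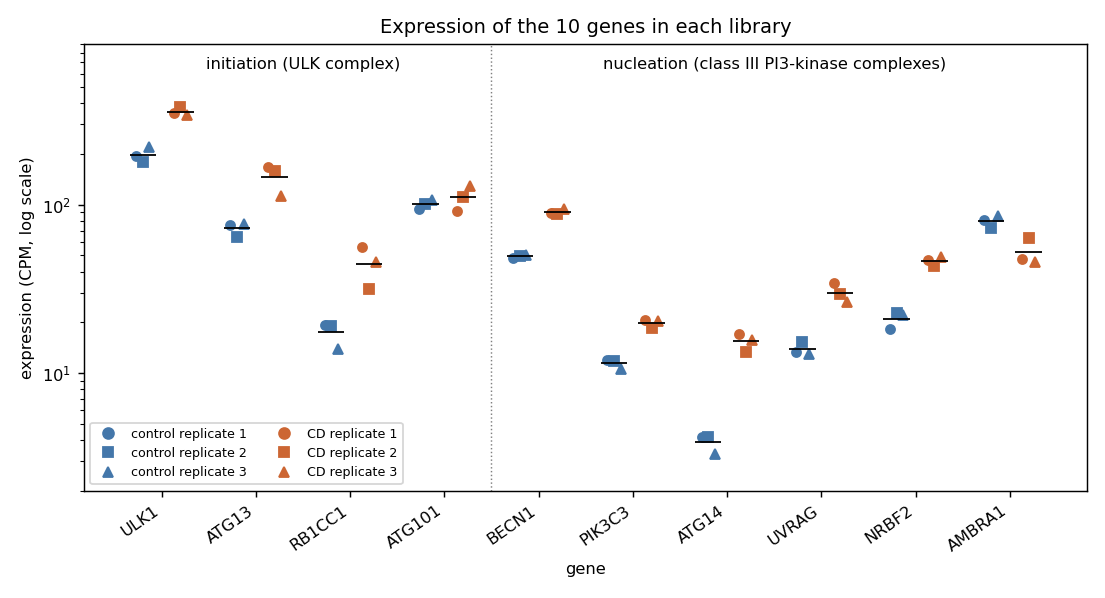
Expression of the 10 genes in CPM (log scale) in each of the 6 libraries, with the symbol's shape giving the replicate number, the color the group, and the black bars the mean of 3 libraries. The CD libraries lie above the control libraries for 8 genes, overlap with them for ATG101 (91.9 to 129 CPM in CD) and lie below them for AMBRA1.

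In the nucleation complexes, 5 of 6 genes were higher and 1 was lower (edgeR, FDR under 0.05), with a median log2 fold change of 0.995. BECN1 (beclin 1) is the platform on which the lipid kinase and its partners meet. It had 48.1, 49.7 and 50.2 CPM in the control and 88.7, 88.5 and 93.7 CPM in the CD libraries. It was the most even of the 10 genes, with a coefficient of variation of 2.28% in control and 3.25% in CD. BECN1 rose 1.83-fold, or by 0.87 on the log2 scale (standard error 0.11, FDR 0.000123, edgeR). Its near relative BECN2 had 0 counts in all libraries.

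PIK3C3, also called VPS34, is the catalytic subunit that makes PI3P. It was at 11.9, 11.7 and 10.6 CPM in the control and 20.5, 18.5 and 20.2 CPM in the CD libraries. These groups were far apart relative to their spread, and PIK3C3 rose by 0.79 on the log2 scale (standard error 0.15, FDR 0.00177, edgeR).

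ATG14 directs the kinase to the site of autophagosome formation and is the subunit that defines its autophagy-specific form. Its counts were 58, 58 and 60 in the control libraries and 279, 216 and 219 in the CD libraries. This corresponds to 4.16, 4.19 and 3.31 CPM and to 17.2, 13.2 and 15.8 CPM. ATG14 had the fewest reads of the 10 genes in the control libraries and the highest fitted change in CD, 3.97-fold or 1.99 on the log2 scale (standard error 0.20, FDR 2.82e-05, edgeR). It ranked 323 from the top among the 12148 genes tested. When libraries were omitted singly, the change stayed between 1.88 and 2.06.

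UVRAG takes the place of ATG14 in the other form of the kinase, which acts on endosomes and on later steps of autophagy. It had 13.3, 15.3 and 12.9 CPM in the control and 34.3, 29.3 and 26.4 CPM in the CD libraries. All CD libraries were higher than the controls, and UVRAG rose 2.17-fold (1.12 on the log2 scale, standard error 0.16, FDR 0.000302, edgeR).

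NRBF2 joins the ATG14 form and promotes its activity. It was at 18.2, 22.8 and 22.1 CPM in the control and 46.9, 43.0 and 48.8 CPM in the CD libraries. NRBF2 rose 2.20-fold without overlap of the groups (1.14 on the log2 scale, standard error 0.14, FDR 0.000121, edgeR).

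AMBRA1, an adaptor of ubiquitin ligases that binds both BECN1 and the ULK complex, went the other way. It had 81.4, 72.6 and 85.5 CPM in the control and 47.6, 63.1 and 45.3 CPM in the CD libraries. Every CD library was lower than every control library, and CD replicate 2 was the nearest to the controls. AMBRA1 fell by 0.62 on the log2 scale (standard error 0.15, FDR 0.00677, edgeR), or 1.54-fold. Of all genes tested, 18.0% had a fitted change at or below that of AMBRA1.

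For 9 of the 10 genes the libraries of the groups did not overlap, 8 with higher and 1 with lower values in CD. Among all genes tested, the groups did not overlap for 58%. Those higher in CD made up 29.5% and those lower 28.6% of all genes tested. For a single gene, 0.1 is the smallest two-sided p that exact permutation of 3 against 3 libraries allows. Any gene without overlap has this p, so it adds nothing to the count of the 9 genes. By library, the median difference of the 10 genes from their control means was 0.99, 0.90 and 0.86 on the log2 scale in CD replicates 1, 2 and 3. In the control replicates it was 0.0037, 0.025 and 0.052, small by construction because the control means were subtracted. The median of the 10 genes was above its control values in each CD library, which restates the calls given above by library. For single genes the CD libraries were less even, and the coefficient of variation was higher in CD than in control for 6 of the 10 genes.

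**Figure D2:**
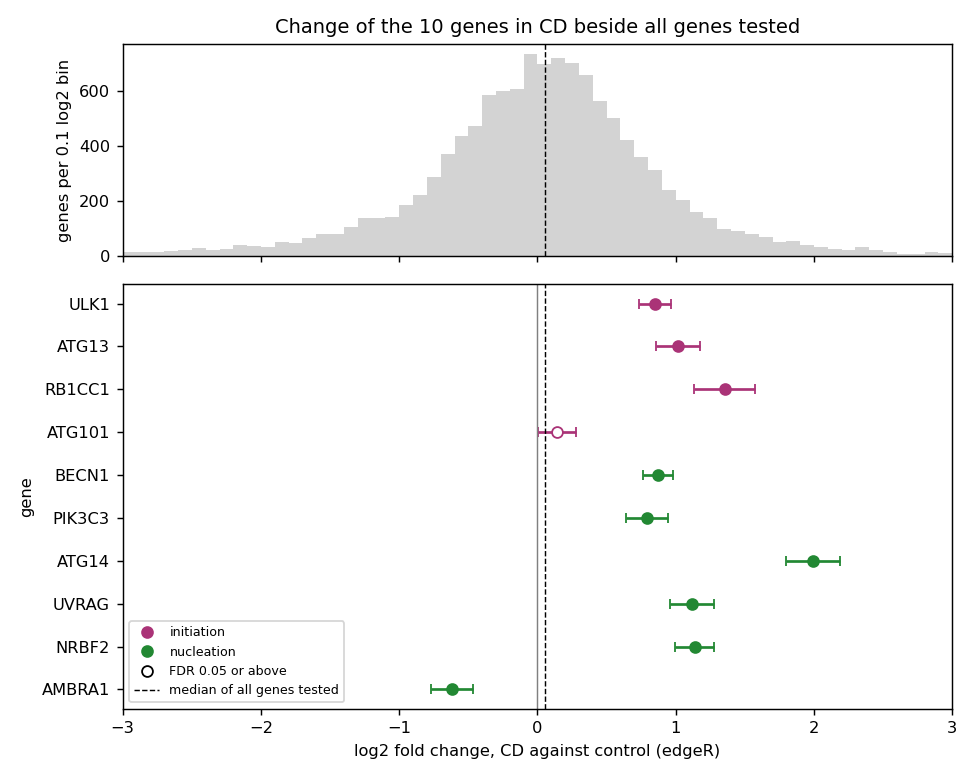
Upper panel, number of all genes tested per bin of 0.1 in log2 fold change (178 genes beyond 3 in either direction are not drawn); lower panel, log2 fold change of each of the 10 genes with its standard error as the bar, with an open circle where the FDR was 0.05 or above. ATG14 stands highest at 1.99, AMBRA1 lowest at -0.62, and the dashed line marks the median of all genes tested, 0.06.

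The balance between subunits was followed as the ratio of the counts of a pair of genes within each library, which does not depend on how libraries are scaled. Because the lengths of the transcripts differ, only the change of a ratio between groups can be read, not its size. Of 12 ratios planned, 11 could be formed (ULK2 was not analysed here). For 7 of them the groups did not overlap, 3 higher and 4 lower in CD. Each of these had p = 0.1 in an exact two-sided permutation test, as any ratio without overlap must. This is the smallest p that 3 libraries against 3 allow, and it was 0.157 after adjustment over the 11 ratios. A threshold of 0.05 is out of reach of this permutation test, so the ratios are given as values without a call.

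ATG14 and UVRAG, which bind BECN1 in its separate complexes, were compared directly. The ratio of ATG14 to UVRAG counts was 0.315, 0.275 and 0.258 in control replicates 1, 2 and 3, and it was 0.4996, 0.453 and 0.599 in the CD replicates. Every CD library had the higher ratio, by a mean of 0.87 on the log2 scale or 1.82-fold (control SD 0.15, CD SD 0.20, n = 3 each). The ratio of ATG14 to BECN1 was likewise higher in CD, by 1.11 on the log2 scale or 2.15-fold, without overlap. For UVRAG against BECN1 the difference was 0.24 with overlap, and it was 0.13 without CD replicate 1. NRBF2 against BECN1 was higher by 0.27 without overlap, and PIK3C3 against BECN1 differed by -0.079 with overlap, which is within the control SD of 0.12 and ranged from -0.15 without control replicate 3 to -0.029 without control replicate 1, and was at -0.12 and -0.046 without CD replicates 1 and 2.

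AMBRA1 showed the opposite shift. Its counts were 1.69, 1.46 and 1.70 times those of BECN1 in the control libraries and 0.537, 0.713 and 0.484 times in the CD libraries. The ratio was lower in every CD library, by a mean of 2.83-fold.

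PIK3R4 (VPS15), the regulatory subunit bound to PIK3C3, is a core subunit outside the 10 genes and is listed in the count table as PI3R4. It had 27.4, 26.2 and 23.6 CPM in the control and 25.1, 22.8 and 17.1 CPM in the CD libraries. It was not called (log2 fold change -0.25, standard error 0.17, FDR 0.253, edgeR). The ratio of PIK3R4 to PIK3C3 counts went from 2.30, 2.24 and 2.23 in control to 1.22, 1.23 and 0.844 in CD, a mean decrease of 2.08-fold without overlap. RUBCN, a protein that binds the UVRAG form and inhibits it, was not called itself (log2 fold change -0.028, FDR 0.953, edgeR), and the sign of its change depended on the setting. Its ratio to UVRAG was lower in CD by a mean of 2.42-fold without overlap, and CD replicate 3 had the lowest value, 0.108.

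Within the initiation complex, the ratios of ATG13 and of RB1CC1 to ULK1 overlapped between the groups, with differences of 0.15 and 0.48 on the log2 scale. Single libraries decided the size of both. ATG13 against ULK1 was at 0.022 without CD replicate 1 and at 0.29 without CD replicate 3, and RB1CC1 against ULK1 was at 0.25 without control replicate 3, 0.27 without CD replicate 1 and 0.75 without CD replicate 2. The ratio of ATG101 to ULK1 was 0.486, 0.557 and 0.488 in control replicates 1, 2 and 3, as against 0.263, 0.292 and 0.382 in the CD replicates. It was lower in every CD library, by a mean of 1.65-fold.

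**Figure D3:**
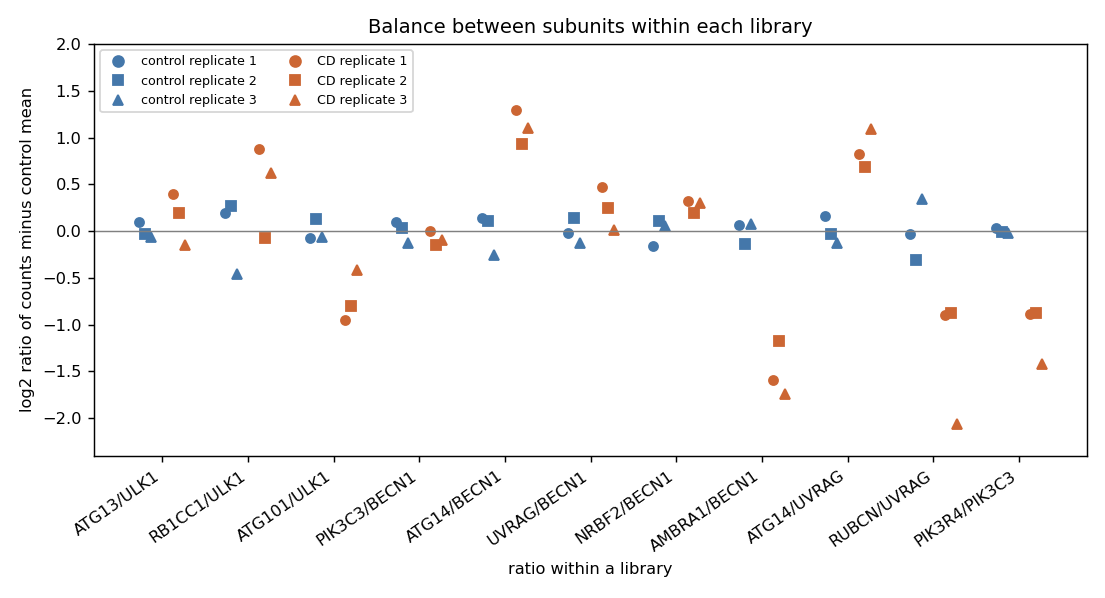
Log2 ratio of the counts of a pair of genes within each library, minus the mean of that ratio over the 3 control libraries, with shape for the replicate number and color for the group. CD libraries are above all control libraries for ATG14/BECN1, NRBF2/BECN1 and ATG14/UVRAG, and below them for ATG101/ULK1, AMBRA1/BECN1, RUBCN/UVRAG and PIK3R4/PIK3C3.

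Other genes that act at the same steps were followed as 4 lists. Of 16 ULK-related kinases and upstream regulators, 14 were found and 13 tested, with 5 higher and 0 lower (edgeR, FDR under 0.05) and a median log2 fold change of 0.42, beside 24.8% higher and 22.9% lower among all genes tested. When libraries were omitted singly, the number of higher genes lay between 3, without control replicate 1, and 7, without CD replicate 3. The lower genes numbered 2 without CD replicate 3 and 1 without CD replicate 1. CAB39, which activates the AMPK kinase LKB1, went from 12.3 ± 0.321 to 33.2 ± 6.92 CPM (SD, 3 libraries per group) and rose by 1.43 on the log2 scale (FDR 0.000112, edgeR). C9orf72 and WDR41, of a complex that binds the ULK complex, had log2 fold changes of 1.43 and 0.71 (FDR 0.000517 and 0.00622, edgeR). PRKAG2, a regulatory subunit of AMPK, was higher by 0.63 without overlap (FDR 0.00775, edgeR), but not called without control replicate 1 (FDR 0.0539). CAMKK2, a kinase that activates AMPK, was higher by 0.70 (FDR 0.0389, edgeR), but its groups overlapped. It was called in only 7 of 14 alternative settings and lost its call with limma-voom, with total counts as the scaling, and when any single control library or CD replicate 1 or 2 was left out, with an FDR of up to 0.133. Without CD replicate 1 the change of CAMKK2 was 0.43. The catalytic subunits of AMPK, PRKAA1 and PRKAA2, were not called (log2 fold changes 0.42 and -0.17), nor was the related kinase ULK3 (-0.18). Without CD replicate 3, PRKAA1 was called higher, by 0.57 (FDR 0.0158, edgeR), and PRKAA2 was at 0.011. Without CD replicate 1, PRKAA1 was at 0.088 (FDR 0.763, edgeR). These 5 genes, from PRKAG2 to ULK3, were named after their values had been seen.

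All 15 partners of the class III PI3-kinase were found and 13 were tested, of which 4 were higher and 3 lower (edgeR), with a median log2 fold change of 0.30. Among all genes tested 24.8% were higher and 22.9% lower, so these counts lay close to the background. The higher genes numbered 2 without control replicate 1 or 3. BCL2 and BCL2L1, the anti-apoptotic proteins that bind BECN1 and hold it inactive, were among the lower genes. BCL2 had 7.45, 8.17 and 8.32 CPM in the control and 1.84, 1.78 and 1.51 CPM in the CD libraries, far below the controls and with little spread. It fell by 2.21 on the log2 scale (standard error 0.20, FDR 1.8e-05, edgeR), or 4.63-fold, and BCL2L1 fell by 0.66 (standard error 0.11, FDR 0.000698, edgeR). USP10, a deubiquitinase that acts on beclin 1, fell by 0.75 (FDR 0.00106, edgeR). Among the higher genes, DAPK1, a kinase that phosphorylates BECN1, had a log2 fold change of 1.29 (FDR 0.000302, edgeR). SH3GLB1, a membrane-curving partner of UVRAG, had one of 0.83 (FDR 0.0014, edgeR). USP13, another deubiquitinase of beclin 1 complexes, was higher by 0.89 (FDR 0.0151, edgeR), but not called without control replicate 1 or 3, where its FDR rose to 0.0657.

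Of 16 genes of PI3P turnover and its effectors, 14 were tested, with 6 higher and 1 lower (edgeR), beside 24.8% and 22.9% of all genes tested, and a median log2 fold change of 0.31. The higher genes numbered 3 without control replicate 1 or CD replicate 1 and 2 without control replicate 3. The lower genes numbered 0 without control replicate 1 or 3 and 2 without CD replicate 1. ZFYVE1 (DFCP1), which marks the PI3P-rich membrane from which phagophores emerge, went from 38.2, 30.4 and 37.3 CPM in control to 73.1, 72.8 and 53.5 CPM in CD, with no overlap. Its log2 fold change was 0.91 (standard error 0.16, FDR 0.00106, edgeR). MTMR14, a phosphatase that removes PI3P, was higher by 0.67 (FDR 0.00262, edgeR). EEA1, an endosomal tether that binds PI3P, was higher by 0.70 (FDR 0.0348, edgeR), but its groups overlapped and it was not called in 6 of 14 alternative settings. These were limma-voom and the omission of any control library or of CD replicate 1 or 3, and the FDR was up to 0.132. VAC14, the scaffold of the kinase that converts PI3P further, fell by 0.43 (FDR 0.0178, edgeR) and was not called without control replicate 1 or 3, with an FDR of up to 0.095.

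Of 10 genes of ATG9 vesicles and of sites on the endoplasmic reticulum, 9 were tested, with 4 higher and 2 lower (edgeR) and a median log2 fold change of 0.17. The shares over all genes tested were 24.8% and 22.9%, and that of the lower genes was about the same here. The higher genes numbered 1 without control replicate 1 or 3 and 2 without control replicate 2. ATG9A, the lipid scramblase of the vesicles that seed the phagophore, was named after its values had been seen and was not called (log2 fold change -0.19, FDR 0.218, edgeR). ARFIP2, carried on these vesicles, fell by 0.88 (FDR 0.00019, edgeR), and EI24, a membrane protein of the endoplasmic reticulum, fell by 0.60 (FDR 0.00094, edgeR). TRAPPC8, of a complex that sorts ATG9 vesicles, was higher by 0.91 (FDR 0.00267, edgeR). TMEM41B, a scramblase of the endoplasmic reticulum, was higher by 0.65 (FDR 0.0259, edgeR), but not called when any single control library or CD replicate 1 was left out, with an FDR of up to 0.105. Without CD replicate 1 the change of TMEM41B was 0.41. VAPA, a tether at membrane contacts, was higher by 0.43 (FDR 0.0166, edgeR), and not called without control replicate 1 or 3, with an FDR of up to 0.0829. The medians of the 4 lists, from 0.17 to 0.42, lay between those of all genes tested and of the 10 genes, and their differences were not tested.

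**Figure D4:**
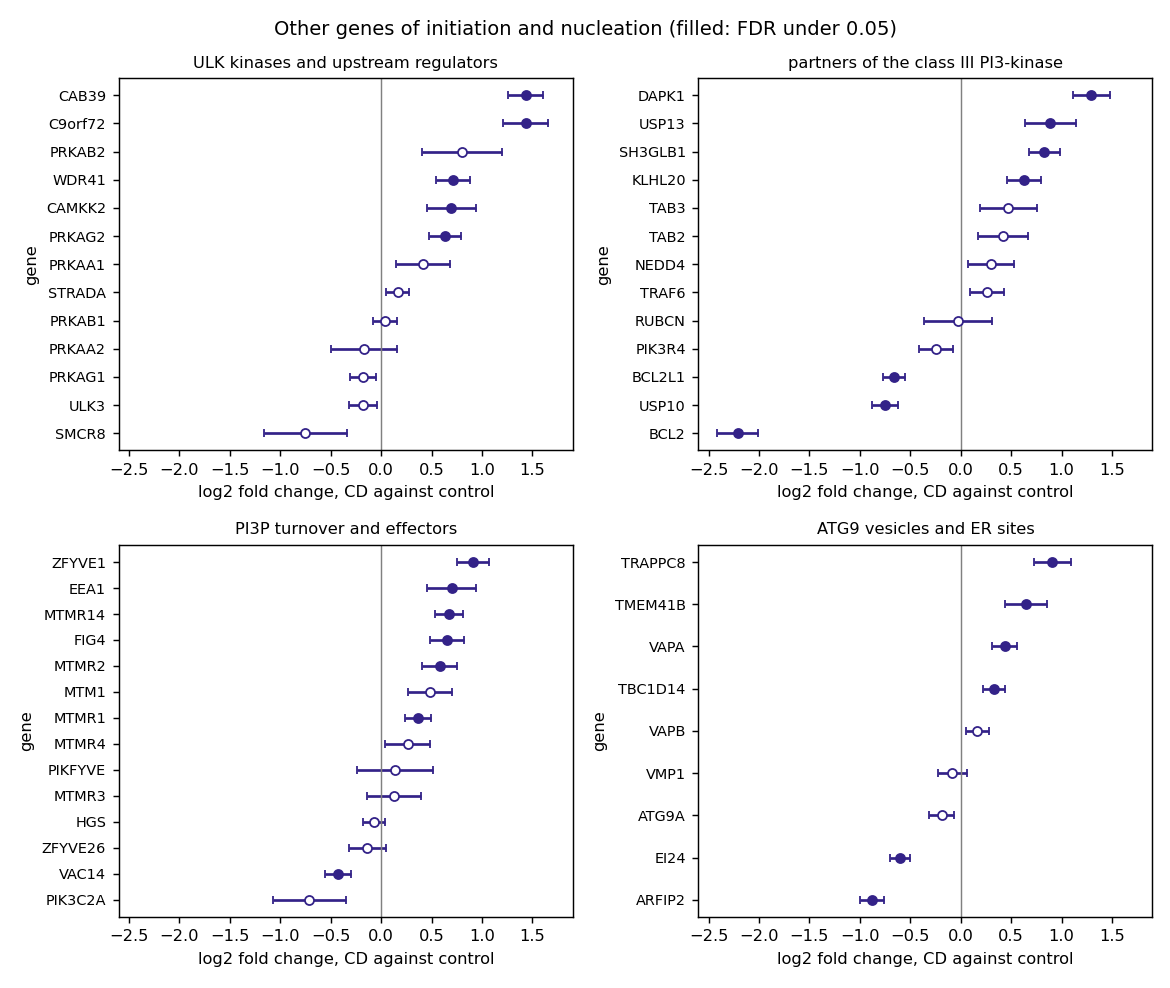
Log2 fold change in CD against control with its standard error for the tested genes of 4 related lists, filled where the FDR was under 0.05 (edgeR). The lists hold called genes in both directions except for the ULK kinases and regulators, with BCL2 the lowest at -2.21 and CAB39 the highest at 1.43.

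Over the 6 libraries, the genes nearest in profile to ULK1 were TNK2, PFKFB4 and TMEM140, with root mean square differences of 0.026, 0.032 and 0.042 between log2 CPM values centered on their means. Nearest to BECN1 were VAMP3, GPAT3 and HABP4, at 0.035, 0.040 and 0.041. All of them were called higher in CD, with log2 fold changes between 0.83 (PFKFB4, VAMP3 and GPAT3) and 0.87 (TNK2). The likeness rests on 6 libraries in 2 groups, and genes with a change of the same size are close by this measure.

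ATG13 and AMBRA1 lie close together in the mink genome, with HARBI1 as the only protein-coding gene between them in the RefSeq annotation of assembly ASM_NN_V1, which is not the assembly used by the authors. ATG13 was higher and AMBRA1 lower in CD, and HARBI1, listed as HARB1, was higher, at 6.52, 7.16 and 6.94 CPM in control and 10.6, 11.3 and 12.2 CPM in CD (log2 fold change 0.72, standard error 0.17, FDR 0.00534, edgeR). Neighboring genes thus moved in opposite directions. The counts of genes that overlap are uncertain, since it is not stated whether strand was used in counting. Taking the protein-coding gene on each side of the 10 genes, there were 19 different neighbors, of which 18 were in the count table and 9 were tested. Among these 9 neighbors edgeR called 5 higher and 2 lower, beside 24.8% and 22.9% of all genes tested. They were named after their values had been seen. JMJD1C beside NRBF2 and FBXO34 beside ATG14 were higher by 1.16 and 1.15, and DGAT2, an enzyme of triglyceride synthesis beside UVRAG, by 1.80. PUS1 beside ULK1 and PSME3 beside BECN1 fell by 0.73 and 0.38, and PSME3 was not called without control replicate 1 (FDR 0.0602, edgeR). NR4A1, an immediate early gene beside ATG101, was higher by 5.26 (FDR 2.68e-07, edgeR), although ATG101 itself was not called.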

How the data were processed

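Per the labels and the study's methods, sequencing used poly(A)-selected RNA and Nextera XT libraries. Per the submitters' processing notes, reads were trimmed with fastp 0.20.1 and aligned with STAR 2.7.2a to the mink assembly NNQGG.v01. The program that counted reads and its strand setting are not given in the sources used here. The authors deposited raw counts per gene. The 4 rows that give totals of reads not on genes were left out of library sizes and tests. They held 29.3% to 47.2% of the reads per library. The deposited normalized files were not used, because their gene identifiers stand in another order than their values.

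Counts were compared with edgeR 4.0.16 in R 4.3.3 (filterByExpr with minimum count 10 and total 15, TMM, robust glmQLFit, glmQLFTest, condition as the only term), with Benjamini-Hochberg adjustment over all genes tested. The standard error is the log2 fold change divided by the square root of F, with a median of 0.18. For ratios, 0.5 was added to each count. The code was tested on simulated data. The members and lists were chosen with earlier results of these data known. Genes named were the 10 genes, PIK3R4, up to 3 called genes in each direction per related list, the 3 nearest profiles to ULK1 and to BECN1, and sterol-response genes, some of which are not reported here. Other genes were named after their values had been seen. PIK3R4, PRKAA1, C9orf72, TMEM41B, SQLE and HARBI1 were matched by the description in the table. Alternatives were DESeq2 1.42.0, limma-voom (limma 3.58.1), other scalings and filters, the replicate number as a block, an FDR of 0.01 and the omission of each library.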

Additional observations from a re-analysis of the deposited data

How the results depend on the processing

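The counts of called genes were the same for the initiation and nucleation genes in all 15 alternatives. Of 140 values of single genes among the 10, 139 kept their direction and side of the threshold. The exception was ATG101, which ranged from -0.019 to 0.27 with a library left out and was called in none of 14 settings. The 9 called genes were called in all 14, with AMBRA1 between -0.81 and -0.55 and an FDR of at most 0.0392. The 88 values of ratios kept their direction, but those whose groups overlapped moved by over 1.5 times with a library left out. Of 698 values of other named genes, 660 kept their direction and call, 25 lost a call, 5 gained one and 8 changed sign, all of genes that were not called. RUBCN was at 0.0062 with upper quartile scaling, at 0.0027 with total counts and between -0.298 and 0.269 with a library left out. PIKFYVE was at -0.041 with limma-voom, at -0.0227 with the replicate block and between -0.441 and 0.438 with a library left out, and PRKAA2 ranged from -0.442 to 0.0109.

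The related lists depended more on the setting. With a library left out, the numbers of higher genes ranged from 3 to 7 for ULK kinases and regulators, 2 to 6 for kinase partners, 2 to 8 for PI3P genes and 1 to 4 for ATG9 and reticulum genes, and those of lower genes from 0 to 2, 3 to 3, 0 to 2 and 2 to 3. At an FDR of 0.01, there were 2 higher kinase partners, 3 higher and 0 lower PI3P genes and 1 higher ATG9 or reticulum gene, because the threshold was stricter. The cause of the other differences was not tested. The replicate block gave 2 lower PI3P genes in place of 1 and moved no other count by over 1.5 times. Whether libraries of the same number were prepared together is not given in the labels. Their deviations correlated at -0.02, -0.396 and -0.197 across genes, with no sign of pairing. These values cannot decide it, since deviations were taken from the mean of only 3 libraries per group and so depend on each other. At an FDR of 0.01, 2006 of all genes were higher and 2036 lower, in place of 3016 and 2784. Scalings moved the median of all genes by at most 0.032.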

Other observations

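SMCR8, the partner of C9orf72 in the complex with WDR41, did not follow C9orf72 and WDR41, which were both called higher. It had 24.2, 23.9 and 27.8 CPM in the control and 24.5, 15.3 and 5.04 CPM in CD replicates 1, 2 and 3 (log2 fold change -0.75, standard error 0.41, FDR 0.156, edgeR). C9orf72 itself had 20.9, 16.0 and 17.0 CPM in the same CD libraries. PIKFYVE, the kinase that converts PI3P, showed a like order, with 10.5, 5.40 and 2.88 CPM in CD and between 5.57 and 5.84 CPM in control. PIK3C2A, a class II PI3-kinase, had 10.8, 4.601 and 3.39 CPM in CD and between 9.26 and 11.03 CPM in control. None of the 3 genes was called over all libraries, and CD replicate 3 held the lowest value of all 6 libraries for each. Without CD replicate 1, SMCR8 and PIK3C2A were called lower, with log2 fold changes of -1.29 and -1.35 (FDR 0.0133 and 0.000757, edgeR), and PIKFYVE was at -0.44. Without CD replicate 3, SMCR8 was called lower (log2 fold change -0.39, FDR 0.0362, edgeR). PIK3C2A was also called with the replicate block (-0.87, FDR 0.0109, edgeR). Without CD replicate 3 its change was smaller and not called (-0.46, FDR 0.149, edgeR), as against -0.71 over all libraries. The genes were picked after their values had been seen.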
